A study of Mus musculus with 64 samples.

Results

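The 10 genes of the NRF2 and glutathione antioxidant response described here, Nfe2l2, Hmox1, Nqo1, Gclc, Gclm, Gsr, Gpx4, Txnrd1, Srxn1 and Gstm1, were taken by symbol from a table of 52636 genes, all 10 were found under 1 Ensembl identifier each, and all 10 were among the 20249 genes that passed the filter on low counts. The samples were brown fat (BAT) and epididymal white fat (eWAT) of male mice aged 2 to 4 months, and their RNA was sequenced at 4 Zeitgeber times (ZT6, ZT10, ZT18 and ZT22, in hours after lights on), with 4 samples in each of the 16 groups. FANKO mice (fat-specific Nampt knockout) carried the floxed Nampt tm1Jtree allele, in which exon 3 is flanked by loxP sites, together with a Cre driven by the Adiponectin promoter, so that the deletion was directed to adipocytes and the other cells of the depots kept the gene. The controls, called WT, were Cre-negative littermates from the same Nampt tm1Jtree line. Nampt encodes the enzyme that limits the rate of NAD+ synthesis from nicotinamide. Nothing in the labels ties a sample to an animal or a BAT sample to an eWAT sample, so each was treated as a separate sample, and p-values measure the spread between these samples.

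NRF2, the protein of Nfe2l2, is a transcription factor that KEAP1 holds at a low level by directing its ubiquitination and that accumulates when electrophiles or oxidants modify KEAP1. With a small MAF protein it binds antioxidant response elements and raises transcription of genes for glutathione synthesis, glutathione and thioredoxin reduction, quinone reduction and haem breakdown. Much of this control acts on the stability of the protein, so the mRNA level of Nfe2l2 itself is not a measure of NRF2 activity. Several members are also regulated by other factors, Hmox1 by BACH1 and Srxn1 by AP-1 among them, and adipose tissue holds macrophages and stromal cells that express the same genes.

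The promoter windows that RefSeq gives for 7 of the members (assembly GRCm38.p6, 250 bases before and 50 after each of 13 annotated starts) were searched for the core of the antioxidant response element, TGACNNNGC, on both strands. Hmox1, Gclc and Gsr had no entry. The core was in a window of 3 members, and the matches are shown because they are the only windows of members with these letters, with the core in capitals. Among all 32851 windows, 10.2% held the core, so 3 of 13 is to be read against that share.
Nfe2l2, chr2:75704883-75704913, minus strand: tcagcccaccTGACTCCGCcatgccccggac
Gclm, chr3:122245411-122245443, plus strand, core on the opposite strand: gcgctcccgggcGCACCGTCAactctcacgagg
Txnrd1, chr10:82859102-82859134, plus strand, core on the opposite strand: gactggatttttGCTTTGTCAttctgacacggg
The Srxn1 window held no such core but 2 copies of the AP-1 letters TGANTCA, which 6.75% of all windows hold, and the copy nearer the start extends to TGANTCAGC, the letters shared by AP-1 and NRF2 with a small MAF, which 1.02% of windows hold. That longer motif was added after the sequence had been seen. Both copies are in capitals in the stretch from 130 to 21 bases before the start.
Srxn1, chr2:152105394-152105503, plus strand: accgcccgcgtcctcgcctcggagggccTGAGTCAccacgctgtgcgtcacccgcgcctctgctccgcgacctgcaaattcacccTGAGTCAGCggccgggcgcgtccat
A match is a description of the letters and not evidence of binding.

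Total counts ranged from 6117343 to 30544847 per sample, with a median of 15826651, and replicates correlated with r from 0.947 to 0.989 on the log2 scale. Levels are given below in CPM, each gene's share of a sample's counts after TMM scaling. Nampt, the targeted gene, had median levels of 702 CPM in WT BAT and 143 CPM in FANKO BAT with no overlap of the samples, and of 149 and 114 CPM in eWAT with overlap (log2 fold change -2.31 ± 0.07 (SE) and -0.50 ± 0.07, edgeR adjusted p = 1.09e-36 and 4.67e-09). Summed macrophage markers (10 genes) ranged from 118 to 229 CPM in WT BAT and from 682 to 1668 CPM in FANKO BAT, whereas in eWAT they ranged from 768 to 1112 CPM and from 722 to 1288 CPM. Summed adipocyte markers had medians of 11655 and 6245 CPM in WT and FANKO BAT and of 13660 and 14596 CPM in eWAT. Of these 5 genes, 5 were lower in FANKO BAT, whereas in FANKO eWAT 1 was higher and 3 were lower. Summed brown adipocyte markers had medians of 7555 and 2394 CPM in WT and FANKO BAT. Of these 5 genes, 3 were lower in FANKO BAT and 2 were higher in FANKO eWAT, and the others did not pass. In eWAT the brown adipocyte sum was far lower, at 11.9 to 31.9 CPM in WT and 48.5 to 105 CPM in FANKO mice, without overlap. Markers of adipocyte progenitors and stroma moved in opposite directions, with 6 of 6 higher in FANKO BAT (sums of 411 to 1184 CPM in WT and 1203 to 2189 CPM in FANKO mice) and 6 of 6 lower in FANKO eWAT (2300 to 4139 CPM and 1363 to 1991 CPM), without overlap in either depot. All 6 lymphocyte markers were higher in FANKO BAT, with sums of 1.31 to 4.59 CPM in WT and 22.9 to 90.5 CPM in FANKO mice. The part of these shifts in the results below was not tested. Skeletal muscle markers summed to more than 500 CPM in 6 BAT libraries (3 WT and 3 FANKO) and epididymis markers to more than 10 CPM in 7 eWAT libraries (2 WT and 5 FANKO). In bulk tissue, fewer cells of a type and less RNA per cell cannot be told apart.

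Per length of transcript, the members spanned a wide range in WT mice. Gpx4 was highest in BAT with a mean of 342.5 ± 55.3 CPM per kb of exon (SD, n = 16), followed by Gstm1 at 65.1 ± 9.8, Srxn1 at 26.7 ± 2.9, Nfe2l2 at 23.6 ± 3.7, Txnrd1 at 16.7 ± 2.5 and Gsr at 13.5 ± 1.9. Gclc and Gclm, the subunits of 1 enzyme, had 8.7 ± 1.4 and 8.1 ± 1.9 CPM per kb. Hmox1 at 4.7 ± 1.7 and Nqo1 at 1.2 ± 0.4 were lowest. Srxn1 and Nfe2l2, and Gclc and Gclm, did not differ beyond their spread, whereas Gpx4 stood apart from all others in every sample. In WT eWAT the order was led by Gpx4 at 138.8 ± 44.8 and Gstm1 at 123.7 ± 15.7, whose samples overlapped, and Nqo1 was again lowest at 3.4 ± 0.9. The order depends on the length used: per kb of coding sequence Srxn1 (162 in WT BAT) came before Gstm1 (131).

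**Figure D1:**
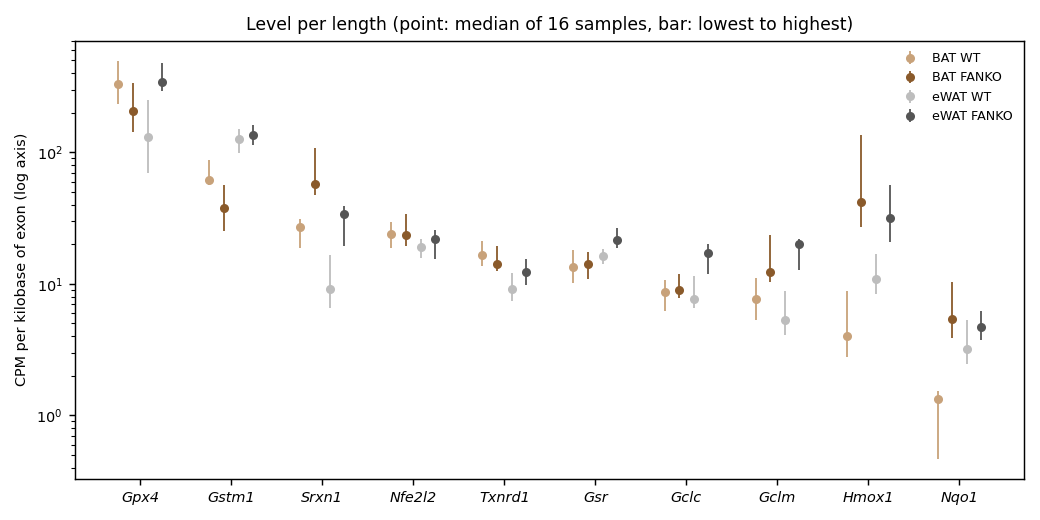
Level per length of the 10 genes in CPM per kilobase of exon on a log axis, ordered by the mean in WT BAT. Points are medians of 16 samples and bars run from the lowest to the highest sample; Hmox1 and Nqo1 are lowest in WT BAT, and the FANKO BAT bars of both lie wholly above the WT BAT bars.

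Loss of adipocyte Nampt went with a mixed pattern in BAT and an almost uniform rise in eWAT. In BAT, 4 of the 10 members were higher in FANKO mice (Hmox1, Nqo1, Srxn1 and Gclm) and 3 were lower (Gstm1, Gpx4 and Txnrd1) at an FDR of 0.01, while Nfe2l2, Gclc and Gsr did not pass. Of all tested genes 33.1% were higher and 33.9% lower in FANKO BAT, and 67.0% changed in either direction, so 4 and 3 of 10 are near the shares of all genes. In eWAT, 9 of the 10 members were higher and 0 lower, and Gstm1 alone did not pass (edgeR; all 10 differences were above 0, and DESeq2 and limma-voom also called 0 lower), where 27.6% of all genes were higher and 22.8% lower (50.3% in either direction). The median log2 fold change of the members was 0.08 in BAT and 0.77 in eWAT, against 0.00 and -0.02 over all tested genes. With scaling to library size alone the median over all genes moved to 0.58 in BAT and -0.27 in eWAT. The share of calls that were higher moved from 49.4% to 84.9% in BAT and from 54.8% to 21.8% in eWAT. The members called became 8 higher and 0 lower in BAT, where 12785 of 20249 genes were higher and 2274 lower. In eWAT they became 5 higher and 0 lower, where 2389 of 20249 genes were higher and 8592 lower. On that scale Gpx4, Gstm1 and Txnrd1 in BAT lay at -0.09, -0.15 and 0.42, each below the median of all genes. All 16 FANKO samples lay above all 16 WT samples for 3 members in BAT (12.5% of all genes, with 0 members and 10% of genes wholly below) and for 6 members in eWAT (4.57% of all genes, with 0 members and 1.33% of genes wholly below).

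**Figure D2:**
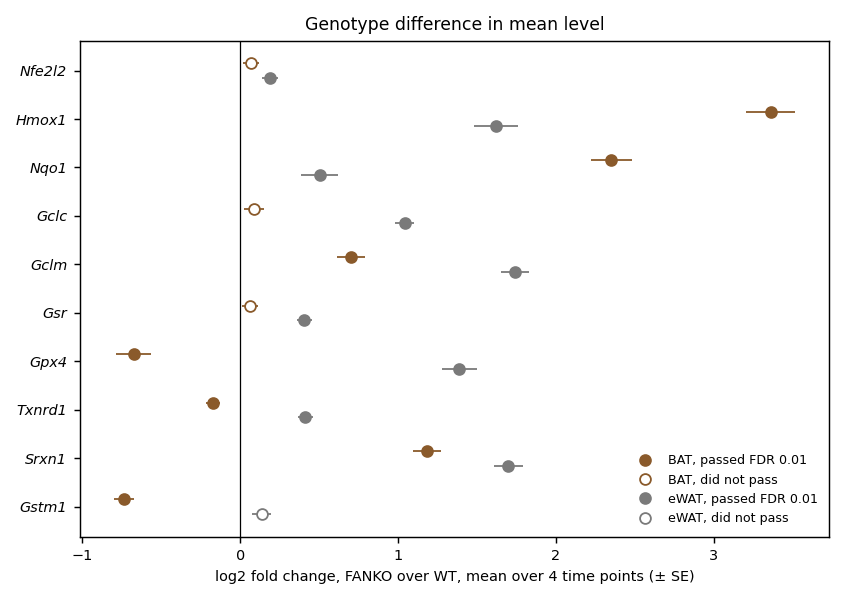
Log2 fold change of FANKO over WT for each gene in BAT and eWAT, as the difference of mean levels over 4 time points with its standard error. Filled points passed an FDR of 0.01; Hmox1 and Nqo1 lie furthest to the right in BAT, and Gpx4 lies at -0.68 in BAT and 1.39 in eWAT.

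The regulator itself changed little. Nfe2l2 (chr2:75675513-75704641, minus strand) was at 71.3 to 112 CPM in WT BAT (median 91.7) and 73.1 to 128 CPM in FANKO BAT (median 89.4), and the samples overlapped widely. Its fold change in BAT was 1.05 (log2 0.07 ± 0.05, edgeR adjusted p = 0.213). Its level in eWAT was 59.7 to 83.2 CPM in WT (median 72.6) and 59.0 to 97.7 CPM in FANKO mice (median 83.9), with 8 FANKO samples above every WT sample and 1 below. The rise in eWAT was 1.14-fold (log2 0.19 ± 0.05, edgeR adjusted p = 8.77e-04), and it was the smallest among the 9 members that rose there. It did not pass without the 7 eWAT and 6 BAT libraries that held other tissue (log2 0.09, adjusted p = 0.233) with DESeq2 (log2 0.13, adjusted p = 0.0181) or without replicate 3 (log2 0.10, adjusted p = 0.121), and with library size alone its sign turned (-0.060).

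Both subunits of glutamate-cysteine ligase, the rate-limiting enzyme of glutathione synthesis, rose in eWAT, but only the modifier subunit passed the test in BAT. Gclc, the catalytic subunit (chr9:77754535-77794485, plus strand), was at 24.5 to 43.4 CPM in WT eWAT (median 29.0) and 44.5 to 76.4 CPM in FANKO eWAT (median 65.2). No FANKO sample reached down to the WT range, and the fold change was 2.06 (log2 1.04 ± 0.06, edgeR adjusted p = 9.52e-22). In BAT, Gclc was at 23.4 to 40.3 CPM in WT (median 32.6) and 29.3 to 45.0 CPM in FANKO mice (median 33.6), a log2 difference of 0.09 ± 0.06 (edgeR adjusted p = 0.201). Gclm, the modifier subunit that raises the activity of the catalytic one (chr3:122245557-122270732, plus strand), was at 25.9 to 55.4 CPM in WT eWAT (median 33.3) and 80.3 to 139 CPM in FANKO eWAT (median 127). These samples did not overlap, and the rise of 3.34-fold (log2 1.74 ± 0.09, edgeR adjusted p = 1.75e-24) was the largest of any member in eWAT. In BAT, Gclm was at 33.7 to 69.4 CPM in WT (median 48.4) and 65.5 to 148 CPM in FANKO mice (median 77.5). There 14 of 16 FANKO samples lay above every WT sample, and the rise was 1.62-fold (log2 0.70 ± 0.09, edgeR adjusted p = 2.39e-10). Of the 6291 exonic bases of Gclm, 296 are shared with Gm17494 on the opposite strand, whose mean level was at most 1.56 CPM in any combination of depot and genotype, and 244 with the pseudogene Gm6061, which is listed at 0 in all samples.

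Among genes that reduce or use glutathione, Gsr and Gpx4 rose in eWAT, while Gpx4 and Gstm1 fell in BAT. Gsr, glutathione reductase (chr8:33652523-33698163, plus strand), was at 39.3 to 50.7 CPM in WT eWAT (median 45.3) and 51.9 to 72.8 CPM in FANKO eWAT (median 59.3). The groups did not overlap although the rise was only 1.33-fold (log2 0.41 ± 0.05, edgeR adjusted p = 2.12e-10). In BAT, it was at 28.1 to 49.8 CPM in WT (median 37.1) and 29.8 to 48.3 CPM in FANKO mice (median 39.1), with a log2 difference of 0.06 ± 0.05 (edgeR adjusted p = 0.270).

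Gpx4, the selenoprotein that reduces lipid hydroperoxides in membranes (chr10:80047166-80056439, plus strand), was the member whose direction turned most clearly between depots. In BAT it was at 403 to 859 CPM in WT (median 574) and 246 to 576 CPM in FANKO mice (median 353), and 10 of 16 FANKO samples lay below every WT sample. The level fell by 0.68 ± 0.11 on the log2 scale (edgeR adjusted p = 1.34e-07). In eWAT it was at 121 to 429 CPM in WT (median 227) and 509 to 828 CPM in FANKO mice (median 596), with no overlap and a rise of 2.62-fold (log2 1.39 ± 0.11, edgeR adjusted p = 1.09e-16). The processed pseudogene Gpx4-ps2 carried between 5.73% and 5.92% as many counts as Gpx4 in each combination of depot and genotype, so reads of the gene and its copy cannot be separated with certainty. Gstm1, a cytosolic glutathione S-transferase of the mu class (chr3:108012255-108017973, minus strand), was at 82.6 to 129 CPM in WT BAT (median 90.7) and 37.3 to 83.9 CPM in FANKO BAT (median 56.0). All but 1 of the 16 FANKO samples lay below every WT sample, and the level fell by 0.74 ± 0.06 on the log2 scale (edgeR adjusted p = 2.53e-16). Its level in eWAT was 145 to 220 CPM in WT (median 186) and 168 to 239 CPM in FANKO mice (median 200), which did not pass (log2 0.14 ± 0.06, edgeR adjusted p = 0.0488). Neighbouring mu-class genes are similar in sequence, and Gstm2 and Gstm5 alone carried 27.6% and 34.9% as many counts as Gstm1 in WT BAT, so the split of reads among them is uncertain.

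The thioredoxin branch was divided as well. Txnrd1, cytosolic thioredoxin reductase (chr10:82833951-82897712, plus strand), was at 96.2 to 150 CPM in WT BAT (median 117) and 88.2 to 137 CPM in FANKO BAT (median 101). The samples overlapped, with 5 FANKO samples below every WT sample, and the level fell by 0.17 ± 0.05 on the log2 scale (edgeR adjusted p = 9.68e-04). That call was lost with DESeq2 (log2 -0.12, adjusted p = 0.0124), without the libraries that held other tissue (log2 -0.10, adjusted p = 0.121) and without replicate 2 or 3 (adjusted p = 0.0107 and 0.0522), and with library size alone the sign turned, as given above. In eWAT it was at 52.5 to 85.7 CPM in WT (median 64.6) and 69.2 to 110 CPM in FANKO mice (median 87.9), a rise of 1.33-fold (log2 0.41 ± 0.05, edgeR adjusted p = 4.90e-11) with 9 FANKO samples above every WT sample. Srxn1, sulfiredoxin, which restores overoxidized peroxiredoxins (chr2:152105516-152111376, plus strand), rose in both depots without overlap. It was at 52.8 to 87.4 CPM in WT BAT (median 75.7) and 134 to 306 CPM in FANKO BAT (median 163), a rise of 2.27-fold (log2 1.18 ± 0.09, edgeR adjusted p = 3.20e-18). Its level in eWAT was 18.5 to 46.9 CPM in WT (median 25.9) and 54.6 to 111 CPM in FANKO mice (median 95.2), a rise of 3.24-fold (log2 1.70 ± 0.09, edgeR adjusted p = 2.04e-23).

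The largest rises in BAT were those of Hmox1 and Nqo1. Hmox1, haem oxygenase 1, which splits haem into biliverdin, iron and carbon monoxide (chr8:75093621-75100589, plus strand), was at 4.84 to 15.5 CPM in WT BAT (median 7.07) and 47.7 to 238 CPM in FANKO BAT (median 73.9). Every FANKO sample was at least 47.7 CPM while no WT sample passed 15.5 CPM, and the rise was 10.3-fold (log2 3.36 ± 0.16, edgeR adjusted p = 6.49e-28). In eWAT, Hmox1 was at 14.7 to 29.6 CPM in WT (median 19.2) and 36.4 to 98.7 CPM in FANKO mice (median 55.9), also without overlap, a rise of 3.08-fold (log2 1.62 ± 0.14, edgeR adjusted p = 2.20e-15). Nqo1, a quinone reductase that uses NADH or NADPH (chr8:107388225-107403206, minus strand), was at 0.726 to 2.40 CPM in WT BAT (median 2.06, from 7 to 42 counts per sample) and 6.001 to 16.1 CPM in FANKO BAT (median 8.41). The groups did not overlap, and the rise was 5.10-fold (log2 2.35 ± 0.13, edgeR adjusted p = 6.87e-24). In eWAT it was at 3.85 to 8.30 CPM in WT (median 4.99) and 5.81 to 9.61 CPM in FANKO mice (median 7.32), where the samples overlapped and the rise was 1.42-fold (log2 0.50 ± 0.11, edgeR adjusted p = 1.52e-04) and did not pass without the libraries that held other tissue (log2 0.34, adjusted p = 0.0367). Haem oxygenase is also expressed by tissue macrophages, and all 10 macrophage markers were tested: 9 were higher and 1 lower in FANKO BAT, and 4 were higher and 1 lower in FANKO eWAT. The range of their summed level separated WT from FANKO samples in BAT and not in eWAT, and their part in the rise of Hmox1, Nqo1, Srxn1 and Gclm was not tested.

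**Figure D3:**
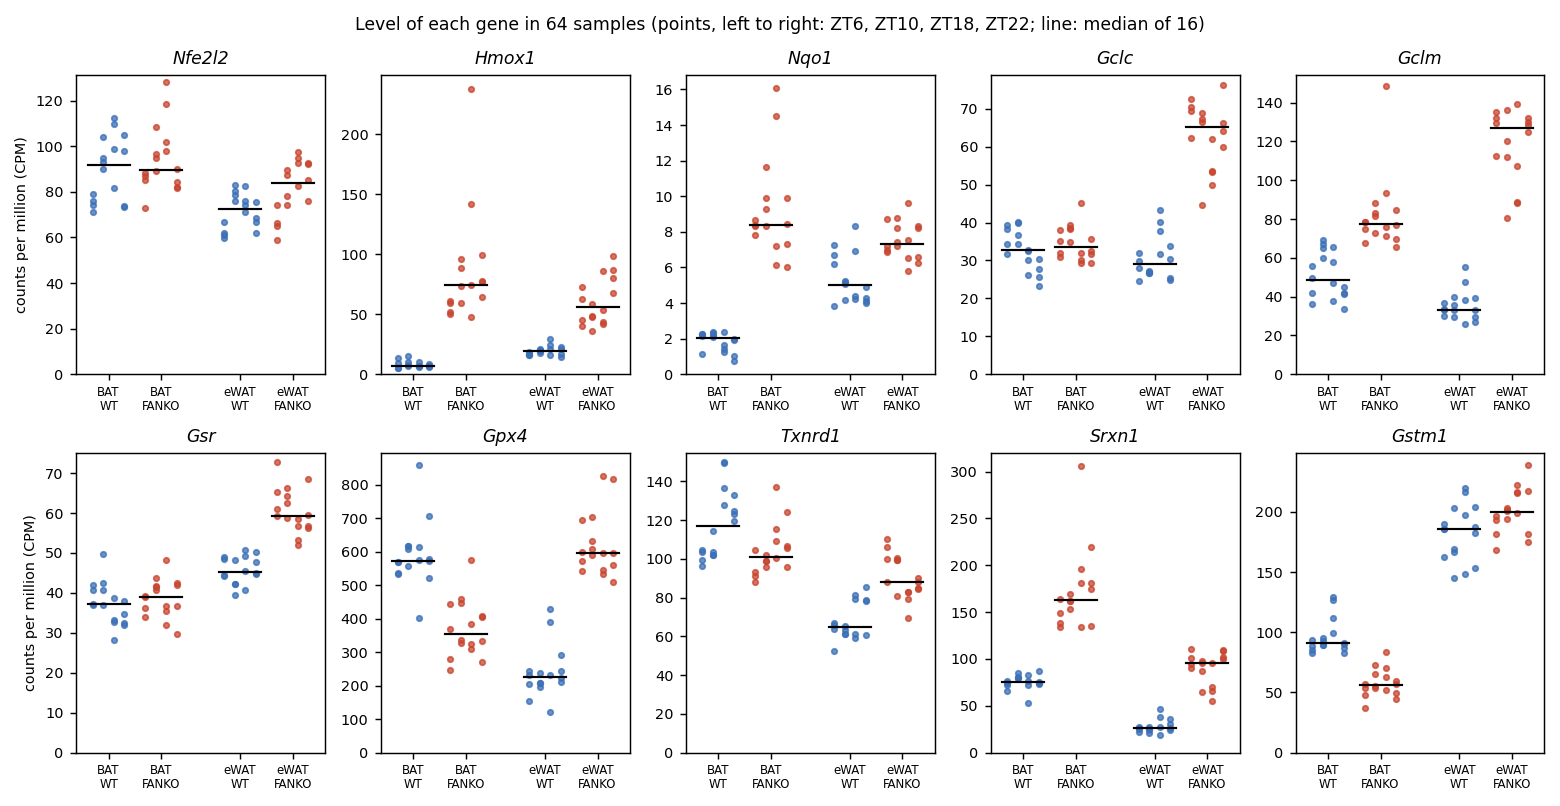
Level of each of the 10 genes in CPM on a linear axis from 0 in all 64 samples, by depot and genotype. Points are samples, ordered within a column by time point, and lines are medians of 16; the FANKO points lie wholly above the WT points for Hmox1 and Srxn1 in both depots.

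The depots also differed in WT mice. In WT mice 5 members were higher in BAT than in eWAT (Srxn1, Gpx4, Txnrd1, Gclm and Nfe2l2) and 4 were lower (Nqo1, Hmox1, Gstm1 and Gsr), where 32.7% of all genes were higher and 41.1% lower (73.7% in either direction). Srxn1 was 2.73-fold and Gpx4 2.49-fold higher in BAT (log2 1.45 ± 0.09 and 1.32 ± 0.11, edgeR adjusted p = 1.16e-21 and 1.14e-16), and Txnrd1 was 1.73-fold higher. Nqo1 was 2.94-fold, Hmox1 2.43-fold and Gstm1 1.91-fold lower in BAT (log2 -1.56 ± 0.13, -1.28 ± 0.15 and -0.93 ± 0.06, edgeR adjusted p = 4.72e-16, 5.79e-11 and 7.08e-21). Gclc did not pass (log2 0.09 ± 0.06, edgeR adjusted p = 0.179). With library size alone, where the median of all genes was -0.86, the signs of Nfe2l2, Gclc and Gclm turned (-0.42, -0.66 and -0.24). On that scale Txnrd1 did not pass (log2 0.05, edgeR adjusted p = 0.461), and only Srxn1 and Gpx4 were still called higher in BAT. Summed macrophage markers were higher in every WT eWAT sample than in any WT BAT sample.

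Whether the genotype effect differed between depots was tested as an interaction in the same model, with values given as the log2 fold change in BAT minus that in eWAT. It passed for 9 of 10 members, 2 above and 7 below 0, against 64.3% of all genes, 32.2% above and 32.1% below 0. Hmox1 and Nqo1 rose more in BAT, by 1.74 ± 0.20 and 1.85 ± 0.18 (edgeR adjusted p = 3.55e-11 and 3.10e-14). For the other 7 called the value was below 0, from Gpx4 at -2.06 ± 0.15 through Gclm at -1.04 ± 0.12, Gclc at -0.95 ± 0.09 and Gstm1 at -0.87 ± 0.09 to Txnrd1 at -0.58 ± 0.07, Srxn1 at -0.51 ± 0.13 and Gsr at -0.35 ± 0.07 (edgeR adjusted p from 2.43e-18 to 2.93e-04). Nfe2l2 did not pass (-0.12 ± 0.07, edgeR adjusted p = 0.118). With library size alone, which moved the median of all genes to 0.88 on this scale, the values of Nfe2l2, Gsr, Txnrd1 and Srxn1 turned positive (0.72, 0.49, 0.25 and 0.32), still below that median, and the calls of Gclc, Gclm and Gstm1 were lost (-0.11, -0.20 and -0.04). The calls of Gsr and Srxn1 were lost without the libraries that held other tissue (-0.15 and -0.33), and also without replicate 3 for Gsr (-0.19) and without replicate 2 for Srxn1 (-0.44). BAT and eWAT comparisons rest on different samples throughout.

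Daily rhythm was tested as a joint cosine and sine term with a period of 24 h over the 4 time points. In WT BAT it passed for 4 of 10 members (Txnrd1, Nfe2l2, Gclc and Gclm), against 13.9% of all genes. Txnrd1 in WT BAT read 99.4, 105, 96.2 and 104 CPM at ZT6, 102, 103, 102 and 115 CPM at ZT10, 150, 137, 150 and 128 CPM at ZT18, and 133, 123, 119 and 125 CPM at ZT22. Both dark-phase groups lay above both light-phase groups in every sample (edgeR adjusted p = 4.32e-05). Nfe2l2 in WT BAT had means of 75.3 ± 3.3 CPM at ZT6 (SD, n = 4), 95.5 ± 6.0 at ZT10, 101 ± 13.9 at ZT18 and 87.6 ± 16.3 at ZT22 (edgeR adjusted p = 0.00274). Gclm and Gclc in WT BAT were instead highest at ZT10 and lowest at ZT22, with means of 65.4 ± 4.0 and 40.6 ± 4.9 CPM for Gclm and of 37.8 ± 2.8 and 26.8 ± 3.0 CPM for Gclc (edgeR adjusted p = 0.00645 and 0.00336). Only Txnrd1 passed again in each fit that left out the samples of 1 replicate number, where the number of members called ranged from 1 to 3.

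In FANKO BAT the rhythm test passed for Nfe2l2 and Hmox1, against 2.84% of all genes. Nfe2l2 had means of 83.3 ± 6.9 CPM at ZT6 and 112 ± 14.0 CPM at ZT18 (edgeR adjusted p = 0.00342). Hmox1 in FANKO BAT read 60.6, 50.2, 52.0 and 59.6 CPM at ZT6, 95.6, 73.5, 88.6 and 59.5 CPM at ZT10, 238, 74.4, 47.7 and 141 CPM at ZT18, and 98.9, 77.2, 64.1 and 77.9 CPM at ZT22 (edgeR adjusted p = 0.00685). The ZT18 samples of Hmox1 covered the whole range of the other time points. BAT FANKO ZT18 replicate 1 had the highest level of the 16 FANKO BAT samples for all 10 members, whereas it was highest for 13.4% of all tested genes. Its summed macrophage markers (917 CPM) lay within the range of the other 15 (682 to 1668 CPM), and its endothelial and stromal sums (289 and 1203 CPM) lay below theirs. Without it the rhythm test passed for 0 of 10 members in FANKO BAT (adjusted p = 0.275 for Hmox1 and 0.0329 for Nfe2l2), while the fold of FANKO over WT means of Hmox1 was 9.14, of Nqo1 4.82, of Srxn1 2.17 and of Gclm 1.52. The difference of rhythm between the genotypes in BAT passed for 0 of 10 members, where 2.76% of all genes passed (edgeR; 1 member, Hmox1, at an unadjusted p below 0.05, and 0 by DESeq2 and by limma-voom).

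In WT eWAT the rhythm test passed for 0 of 10 members (9.38% of all genes), with Gclc, Nfe2l2 and Txnrd1 nearest at edgeR adjusted p = 0.0222, 0.0223 and 0.0329. An unadjusted p below 0.05 was reached by 4 members, and DESeq2 and limma-voom called 0. In FANKO eWAT the rhythm test passed for Nfe2l2 (6.77% of all genes), which had means of 66.2 ± 6.3 CPM at ZT6 and 91.9 ± 6.5 CPM at ZT18 (edgeR adjusted p = 0.00189). That call was lost without replicate 2 or 4 (edgeR adjusted p = 0.0249 and 0.0834) and with library size alone (edgeR adjusted p = 0.0605). Txnrd1 lay at the threshold in FANKO eWAT (edgeR adjusted p = 0.010004). The difference of rhythm between genotypes in eWAT passed for Txnrd1 alone (edgeR adjusted p = 0.00449, against 1.15% of all genes). Txnrd1 in WT eWAT read 64.1, 66.0, 67.0 and 52.5 CPM at ZT6 and 81.5, 61.5, 79.5 and 59.0 CPM at ZT18. In FANKO eWAT it read 110, 87.9, 100 and 106 CPM at ZT6 and 79.4, 69.2, 82.7 and 82.7 CPM at ZT18. The call was lost in fits without the samples of replicate 1, 2 or 3 (adjusted p = 0.0568, 0.0495 and 0.106) and without the libraries that held other tissue (adjusted p = 0.0877). It was also lost with library size alone, no filter on low counts and separate fits (edgeR adjusted p = 0.249, 0.0139 and 0.0269). The FANKO samples lay above all WT samples at ZT6 and overlapped them at ZT18, and the mean of Txnrd1 was highest at ZT6 in FANKO and at ZT22 in WT eWAT.

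**Figure D4:**
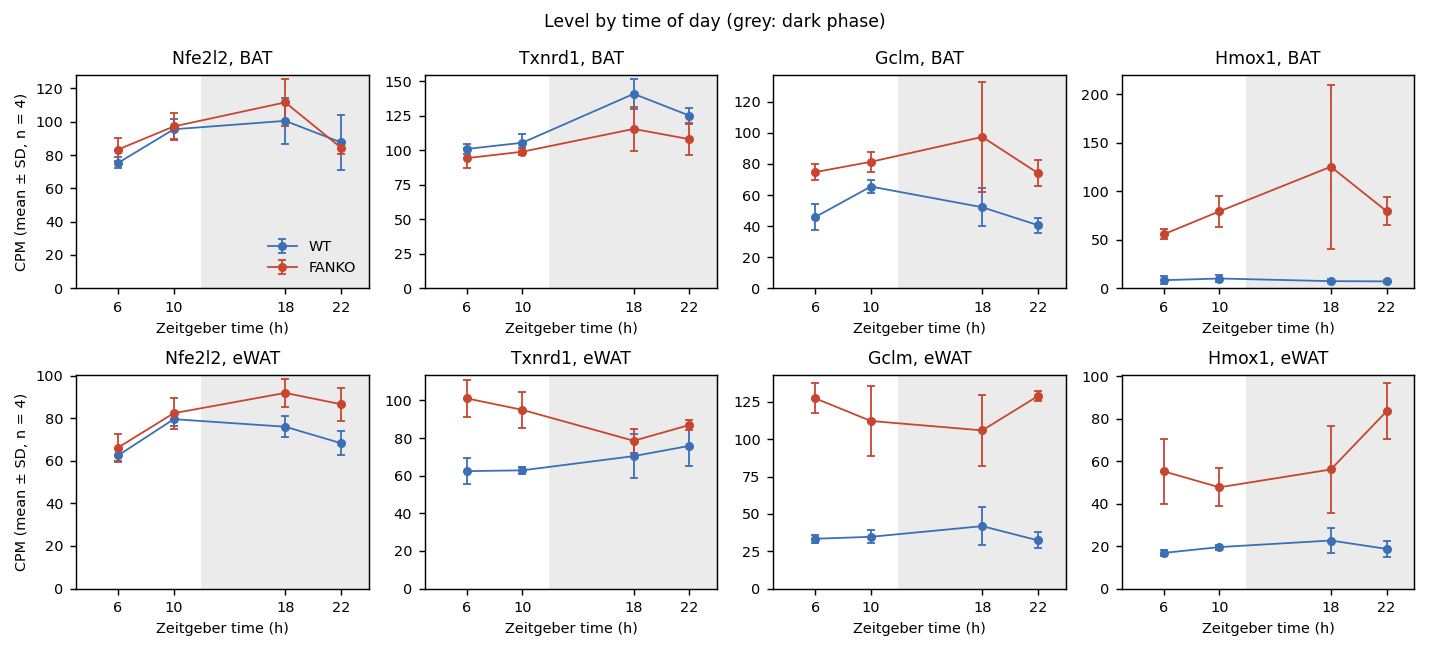
Level in CPM against Zeitgeber time in hours for Nfe2l2, Txnrd1, Gclm and Hmox1 in BAT (top) and eWAT (bottom), as mean ± SD of 4 samples, with the dark phase in grey. Txnrd1 is highest in the dark phase in WT BAT, and the WT and FANKO lines of Txnrd1 in eWAT come closer at ZT18 and ZT22 than at ZT6 and ZT10.

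Read at single time points, Hmox1, Nqo1 and Srxn1 were higher in FANKO BAT at all 4 and Gclm at 3 of 4, all but ZT10. Gstm1 was lower at all 4, Gpx4 at ZT6 and ZT22, and Txnrd1 at ZT18 alone. With library size alone none of these lower calls was kept, and the calls in BAT became 31 higher and 0 lower, with signs turned for Gstm1 at ZT10 (0.018) and Txnrd1 at ZT18 (0.34). On that scale 12785 of 20249 genes were higher in BAT in mean level and 2274 lower, and shares at single time points are not given. Both Gpx4 calls were also lost without the libraries that held other tissue (log2 -0.57 and -0.66). The ZT6 call of Gpx4 was lost without replicate 1, 2 or 4, and its ZT22 call without replicate 2 or 3. That of Txnrd1 was lost with RLE size factors, DESeq2, no filter on low counts and separate fits. It was also lost without the libraries that held other tissue and without replicate 2 or 3. In the main fit 4, 3, 4 and 4 members were higher in BAT at ZT6, ZT10, ZT18 and ZT22, where 24.4%, 23.3%, 21.5% and 22.6% of all genes were higher. There 2, 1, 2 and 2 members were lower, where 23.9%, 22.4%, 22.5% and 22.7% of all genes were lower. The rise of Hmox1 in BAT was 7.12-fold at ZT6, 7.88-fold at ZT10, 17.2-fold at ZT18 and 11.5-fold at ZT22. In eWAT, Hmox1, Gclc, Gclm, Gpx4 and Srxn1 were higher at all 4 time points, Gsr at 3, Txnrd1 at ZT6 and ZT10, and Nfe2l2 and Nqo1 at ZT22 alone. At ZT22 the call of Nqo1 was lost with RLE size factors, DESeq2 and limma-voom and in each fit that left out a replicate number, and those of Nfe2l2 and Gsr with RLE size factors and DESeq2 and without replicate 2, 3 or 4. At ZT18 the calls of Hmox1, Gclc and Gpx4 were lost without the libraries that held other tissue (log2 1.01, 0.37 and 0.82). Lost in the same fit were the eWAT calls of Gsr at ZT6 (log2 0.31) and of Nfe2l2, Nqo1 and Gsr at ZT22 (0.16, 0.70 and 0.19). The ZT18 call of Gclc was also lost without replicate 2 or 3, and that of Hmox1 without replicate 4. Over the 4 times 7, 7, 5 and 8 members were higher, where 16.9%, 16%, 8.54% and 12.6% of all genes were higher, and 0 lower at each time (edgeR, with all member differences above 0, and 10.1%, 8.46%, 5.1% and 8.02% of all genes lower). Gclc in eWAT was 2.39-fold higher at ZT6, 2.29-fold at ZT10, 1.43-fold at ZT18 and 2.32-fold at ZT22. At ZT18 the WT eWAT samples of Gclc read 40.2, 31.8, 37.7 and 43.4 CPM and the FANKO samples 53.3, 49.8, 62.0 and 53.7 CPM, which was the narrowest gap of the 4 times. Exact two-sided permutation tests of 4 against 4 samples, whose smallest possible p is 0.0286, gave that smallest value, which is no overlap of the groups, in 53 of 80 comparisons of member, depot and time point, each with an adjusted value of 0.0431 over the 80. In BAT these were 6, 7, 5 and 6 members at ZT6, ZT10, ZT18 and ZT22, where 50.3%, 52.4%, 41.7% and 48.6% of all genes did not overlap, and in eWAT 7, 8, 6 and 8 members, where 35.6%, 37.9%, 21.7% and 29.3% did not.

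Beyond the 10 members, 112 genes of 9 antioxidant lists were examined, of which 108 were tested (Gpx2, Gsta1, Gsta2 and Gstm3 were too low). The lists also hold genes that act against the response, Keap1, Bach2 and Chac1 among them, so counts over them give no direction of antioxidant capacity. In FANKO BAT 31 of the 108 were higher, 62 lower and 15 did not pass, where 33.1% of all genes were higher and 33.9% lower. With library size alone these counts became 53 higher and 38 lower, where 12785 of all 20249 genes were higher and 2274 lower. In FANKO eWAT 66 were higher, 14 lower and 28 did not pass, where 27.6% of all genes were higher and 22.8% lower. With library size alone 40 were higher and 28 lower there, where 2389 of all 20249 genes were higher and 8592 lower. In the main fit the median log2 fold change of the 108 genes was -0.40 in BAT and 0.30 in eWAT, beside 0.00 and -0.02 over all genes. In BAT, 11 of 14 tested peroxidases, catalase and superoxide dismutases, 8 of 11 thioredoxin and glutaredoxin genes, 6 of 7 selenoprotein synthesis genes, 13 of 20 glutathione S-transferases and 4 of 5 genes that handle lipid peroxides fell. The other lists were divided in BAT, with 6 higher and 3 lower of 12 partners and regulators of NRF2, 6 and 6 of 12 genes of glutathione supply and turnover, 8 and 7 of 18 other NRF2 targets and NADPH supply genes, and 3 and 4 of 9 haem and iron genes. In eWAT the first 5 lists had 10, 6, 4, 10 and 4 genes higher and 1, 2, 2, 4 and 0 lower, and the other 4 lists had 6, 7, 12 and 7 higher and 2, 0, 3 and 0 lower.

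**Figure D5:**
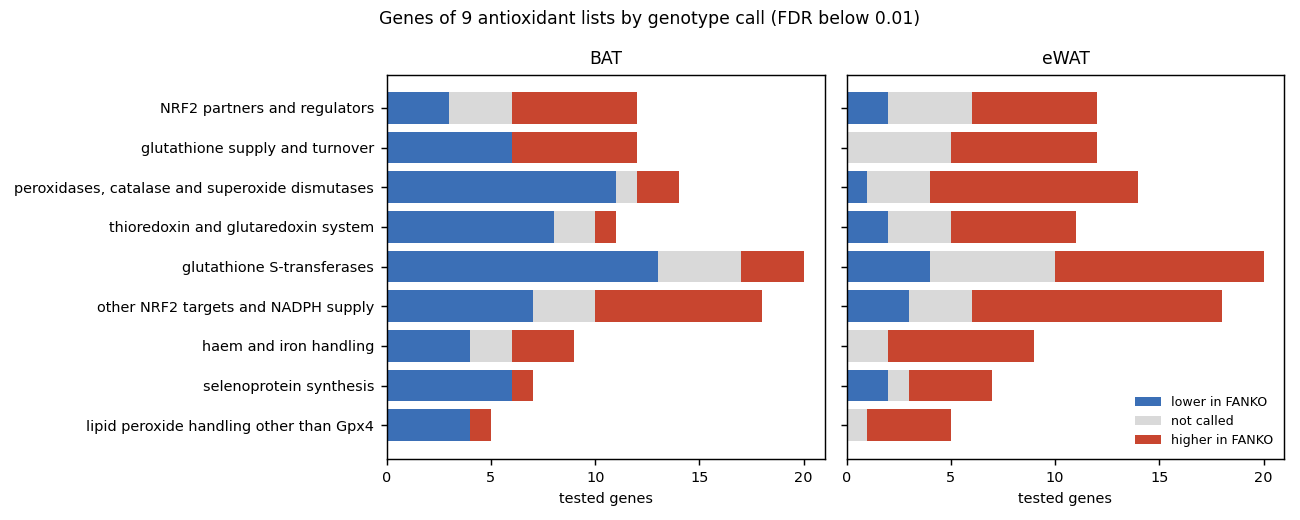
Number of tested genes of 9 antioxidant lists that were lower (blue), not called (grey) or higher (red) in FANKO than in WT mice, in BAT and eWAT. Blue takes 62 of 108 genes in BAT and 14 in eWAT.

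The genes named from these lists are those with the largest changes that passed. Among partners and regulators of NRF2, Maff, a small MAF protein, had medians of 8.94 CPM in WT and 67.4 CPM in FANKO BAT and of 3.93 and 26.5 CPM in eWAT (log2 2.90 ± 0.14 and 2.82 ± 0.14, edgeR adjusted p = 7.15e-27 and 1.03e-24). Sqstm1, the autophagy receptor p62 that binds KEAP1, rose 2.504-fold in BAT and 1.99-fold in eWAT, and Bach2, a repressor of the same family as BACH1, rose 3.08-fold in BAT and was 1.38-fold lower in eWAT, a call that was lost without the libraries that held other tissue (adjusted p = 0.0150) and without replicate 2 or 4 (adjusted p = 0.0170 and 0.0411). In glutathione supply, Slc7a11, the cystine transporter, was nearly absent from WT BAT, with 17 counts in 16 samples and 7 samples at 0, and was at 7.44 to 51.5 CPM in FANKO BAT (median 15.01). Its level in eWAT was 0.338 to 1.49 CPM in WT and 3.57 to 32.4 CPM in FANKO mice. It passed in both depots (edgeR adjusted p = 1.16e-27 and 4.75e-23). Chac1, which degrades glutathione and is a target of the ATF4 stress response, rose as well, by 1.93 ± 0.25 and 1.501 ± 0.18 on the log2 scale in BAT and eWAT (edgeR adjusted p = 4.33e-10 and 8.07e-11).

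Ephx1, Cbr3 and Ftl1 rose in both depots. Ephx1, microsomal epoxide hydrolase, rose from a median of 25.0 to 268 CPM in BAT and from 46.4 to 193 CPM in eWAT (log2 3.37 ± 0.12 and 2.10 ± 0.11, edgeR adjusted p = 7.15e-34 and 4.92e-24). Cbr3, a carbonyl reductase, rose 6.42-fold in BAT and 4.59-fold in eWAT, and Ftl1, the ferritin light chain, 3.58-fold and 3.11-fold. In iron handling, Tfrc, the transferrin receptor, was 2.94-fold lower in BAT and did not pass in eWAT. Its level was 78.6 to 1270 CPM in WT BAT (median 175) and 43.1 to 121 CPM in FANKO BAT (median 85.5). A single WT BAT library held 24602 of the 62340 counts of Tfrc in that group. Blvra, biliverdin reductase, which acts after haem oxygenase, rose 1.93-fold in eWAT and did not pass in BAT.

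Several mitochondrial and secreted antioxidant enzymes fell in BAT. Gpx3, the plasma glutathione peroxidase, was at 431 to 1633 CPM in WT BAT and 38.4 to 84.7 CPM in FANKO BAT, without overlap (log2 -3.48 ± 0.17, edgeR adjusted p = 2.03e-26), and did not pass in eWAT (edgeR adjusted p = 0.550). Sod2, mitochondrial superoxide dismutase, was 2.34-fold lower in BAT and rose 1.504-fold in eWAT. Prdx3, mitochondrial peroxiredoxin, was 2.20-fold lower in BAT and rose 1.88-fold in eWAT, and Txnrd2, mitochondrial thioredoxin reductase, was 1.77-fold lower and rose 1.73-fold. Sod3, the extracellular superoxide dismutase, was lower in both depots, by 0.93 ± 0.08 and 0.80 ± 0.08 on the log2 scale (edgeR adjusted p = 1.81e-15 and 1.16e-12). Glrx2 and Txnip fell in BAT and did not pass in eWAT. Glrx2 passed in eWAT, as lower, with DESeq2, RLE size factors and library size alone (log2 -0.13, -0.14 and -0.33). It also passed there without the libraries that held other tissue (log2 -0.17). The call of Txnip in BAT was lost with library size alone (log2 -0.34, edgeR adjusted p = 0.0147). Glrx, cytosolic glutaredoxin, rose 1.80-fold in eWAT and did not pass in BAT. The share of counts from the mitochondrial genome had a median of 24.6% in WT and 14.7% in FANKO BAT and of 6.55% and 10.7% in eWAT, moving in the direction of Sod2, Prdx3 and Txnrd2 in both depots, and its part was not tested.

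Of the glutathione S-transferases, Gstz1, which also acts in tyrosine breakdown, was 5.84-fold lower in BAT and 1.62-fold lower in eWAT, and Gsta3 rose 4.95-fold in BAT from a level far below that of eWAT (median 6.38 CPM in WT BAT and 206 CPM in WT eWAT). Gstt2 was 2.76-fold lower in BAT and rose 2.11-fold in eWAT, while Mgst2 rose in both depots (2.53-fold and 2.19-fold). For selenoproteins, which include Gpx4 and Txnrd1, Sephs2, which makes the selenium donor, was 2.79-fold lower in BAT and rose 1.22-fold in eWAT. The call of Sephs2 in eWAT was lost with library size alone (log2 0.04) and without the libraries that held other tissue (log2 0.20, adjusted p = 0.0384). Selenop, the selenium carrier, was lower in both depots (2.07-fold and 1.16-fold), where the eWAT call was lost without replicate 1 or 4 (adjusted p = 0.0273 and 0.0267), and Eefsec, the elongation factor for selenocysteine, rose 1.55-fold and 1.42-fold. Among other genes linked to lipid peroxides, not all of which limit them, Gch1, for tetrahydrobiopterin synthesis, rose 3.71-fold in BAT. Dhodh and Aifm2 were 1.91-fold and 1.64-fold lower in BAT and rose 1.21-fold and 1.32-fold in eWAT. Both calls of Aifm2 were lost with library size alone (log2 -0.14 in BAT and 0.16 in eWAT). Lpcat3 was 1.35-fold lower in BAT, a direction that turned with library size alone (log2 0.15), and rose 1.42-fold in eWAT. The call of Dhodh in eWAT was lost with library size alone (log2 0.03) and without the libraries that held other tissue (log2 0.20, adjusted p = 0.0151).

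Across all 64 samples, the gene of most similar pattern (Pearson's r of log2 CPM) was Ephx1 for Hmox1 (r = 0.953), Lipa, a lysosomal lipase, for Srxn1 (r = 0.955), Vat1 for Nqo1 (r = 0.927), Tex2 for Gclm (r = 0.924), Pgrmc2 for Gclc (r = 0.905), Slc30a4 for Gsr (r = 0.881), Psmc6, a proteasome subunit, for Txnrd1 (r = 0.909) and Mgst3, another glutathione transferase, for Gstm1 (r = 0.965). For Gpx4 it was its own pseudogene Gpx4-ps2 (r = 0.976), and for Nfe2l2 it was 8030462N17Rik at a lower r of 0.731. These values describe 64 samples that share depot and genotype differences.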

How the data were processed

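RNA had been extracted from BAT and eWAT of 32 samples per depot, made into stranded total RNA libraries after removal of ribosomal RNA, and sequenced paired-end. Per the study's methods and the submitters' processing notes, the authors aligned reads with STAR 2.5.3a to the mouse genome (GRCm38.p5) and counted reads per gene with featureCounts 1.5.3, and they deposited raw counts for 52636 genes and 64 samples. Whether counting used strand or reads with several alignments is not given in the sources used here. All else was computed from those counts. After a filter on low counts (filterByExpr over the 16 groups, minimum count 10, minimum total 15), 20249 genes were tested and 32387 left out. Counts were scaled by TMM, and levels are CPM on those library sizes, with a prior count of 2 where a log2 level was taken. One edgeR (version 4.0.16, R 4.3.3) quasi-likelihood model held a mean, a cosine and a sine (period 24 h) for each depot and genotype, and a second model with 16 groups gave the values at single time points. Benjamini-Hochberg adjustment ran over all tested genes of a comparison, with an FDR threshold of 0.01. Alternatives used DESeq2 1.42.0, limma 3.58.1 (voom), other scalings, filters and designs, and left out samples. Exact permutation tests used SciPy 1.17.1.

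On simulated counts for the comparison of genotypes in BAT, with 200 of 20249 genes changed by 1 on the log2 scale, 93.5% of those were called and 0% of unchanged genes. For the rhythm in WT BAT, with 200 of 20249 genes given a peak to trough of 1.5, 79.5% were called. That size is above the fitted peak to trough of each member in WT BAT, the largest being 0.93 for Gclm. The share called is therefore not the power for the members. In the genotype simulation few genes were changed, as many raised as lowered, so it does not test the scaling.

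The members and the gene and marker lists were chosen with earlier results of these data known. From each wider list, up to 2 genes with the largest absolute log2 fold change among those called were named per depot (mean log2 CPM of at least 1), and for each member the 1 gene most alike over the samples. Promoter windows were taken from RefSeq and gene coordinates and exon lengths from a GENCODE annotation of GRCm38. The alternatives without the libraries holding other tissue, without BAT FANKO ZT18 replicate 1 and with the Gpx4 pseudogene counts added were chosen after seeing the data. Replicate numbers were shared by all groups, but no label ties them to animals.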

Additional observations from a re-analysis of the deposited data

Results flagged for a closer look

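In 8 of 160 groups of 4 samples 1 sample stood apart from the others by Dixon's ratio, where chance gives about 1 in 20 groups, or 8. Nqo1 was low in BAT WT ZT6 replicate 4 (1.13 CPM, next 2.17 CPM, ratio 0.933) and in eWAT WT ZT10 replicate 2 (4.17 CPM, next 5.07 CPM, ratio 0.844). In eWAT FANKO ZT10 replicate 1 both Gclc (44.5 CPM, next 66.5 CPM, ratio 0.9202) and Txnrd1 (80.6 CPM, next 99.3 CPM, ratio 0.937) were low. Gpx4 was low in BAT WT ZT10 replicate 3 (558 CPM, next 609 CPM, ratio 0.884) and Txnrd1 was high in BAT WT ZT10 replicate 4 (115 CPM, next 103 CPM, ratio 0.889). Srxn1 was high in BAT WT ZT22 replicate 2 (87.4 CPM, next 75.3 CPM, ratio 0.853), and Gstm1 was low in eWAT WT ZT6 replicate 4 (162 CPM, next 185 CPM, ratio 0.841).

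The genotype effect differed between depots, by the interaction term of the edgeR model, for 9 of 10 members, where 64.3% of all genes passed. As the log2 effect in BAT minus that in eWAT it was 1.74 for Hmox1, 1.85 for Nqo1, -0.95 for Gclc, -1.04 for Gclm, -0.35 for Gsr, -2.06 for Gpx4, -0.58 for Txnrd1, -0.51 for Srxn1 and -0.87 for Gstm1. The calls of Gsr and Srxn1 were lost without the libraries that held other tissue (-0.15 and -0.33). They were also lost without replicate 3 for Gsr and without replicate 2 for Srxn1. Changes with library size alone are given above. The daily rhythm of Txnrd1 differed between genotypes in eWAT (edgeR adjusted p = 0.00449), where 1.15% of all genes passed. That call was lost with library size alone, with no filter on low counts and with separate fits for each depot. It was also lost without the libraries that held other tissue and without replicate 1, 2 or 3.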

How the results depend on the processing

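Of 368 recomputed counts, 320 stayed within 1.5 times the reported count and 48 did not. Most of those concerned rhythm or scaling to library size alone. With library size alone, the members called were 8 higher and 0 lower in BAT, 5 higher in eWAT and 2 higher in WT BAT than in WT eWAT. Of all 20249 genes, 12785 were then higher and 2274 lower in BAT, and 2389 higher and 8592 lower in eWAT. Between the WT depots 2363 were higher and 14884 lower in BAT. Rhythm calls were then 2 in WT BAT, 0 in FANKO BAT and 0 in FANKO eWAT, the rhythm difference in eWAT had 0, time-point calls in BAT were 31 higher and 0 lower, and the wider lists had 53 higher and 38 lower genes in BAT and 40 higher and 28 lower in eWAT. Signs also turned on that scale for Nfe2l2 (-0.060 for genotype in eWAT, 0.72 for the interaction, -0.42 for depot), Gclc and Gclm (-0.66 and -0.24 for depot), Gsr, Txnrd1 and Srxn1 (0.49, 0.25 and 0.32 for the interaction), Txnrd1 in BAT (0.42, and 0.34 at ZT18), Gstm1 (-0.11 in eWAT, 0.018 in BAT at ZT10), Gsta3 and Tfrc in eWAT (-0.11 and -0.16) and Lpcat3 in BAT (0.15). Without the libraries that held other tissue, the sign turned for the Nfe2l2 interaction (0.060) and Tfrc in eWAT (-0.0021), rhythm calls were 2 in WT BAT and 1 in FANKO BAT, the rhythm difference in eWAT had 0, and 4 time-point calls in BAT were lower. Txnip in eWAT, near 0, read 0.015 with limma-voom, 0.00333 with the replicate block, 0.0058 with time point as a factor and from -0.11 to 0.13 over the fits that left out a replicate number, where Tfrc in eWAT read from -0.042 to 0.21. Rhythm calls in FANKO eWAT were 2 with RLE size factors, the stricter filter, DESeq2, limma-voom, robust fitting, the replicate block, an FDR of 0.05 and without BAT FANKO ZT18 replicate 1. With no filter on low counts, rhythm calls in WT BAT were 2 and the rhythm difference in eWAT had 0. The rhythm difference in eWAT had 2 with DESeq2, an FDR of 0.05 and without BAT FANKO ZT18 replicate 1, and 0 with a separate fit for each depot. Rhythm calls in FANKO BAT were 1 with limma-voom, 0 with separate fits and 0 without BAT FANKO ZT18 replicate 1. At an FDR of 0.05 the rhythm in WT eWAT had 3. Leaving out the samples of each replicate number gave from 1 to 3 rhythm calls in WT BAT, 0 to 2 in FANKO BAT, 0 to 1 in WT eWAT, 0 to 1 in FANKO eWAT, 0 to 1 for the rhythm difference in eWAT and 4 to 6 lower time-point calls in BAT. The causes of these changes were not tested. Same-numbered WT and FANKO samples deviated together with r from -0.08 to 0.37, above 0.1 in 19 of 32 pairs, and 34 of 64 samples correlated best with their own number. Same-numbered BAT and eWAT samples did so with r from -0.22 to 0.49, above 0.1 in 21 of 32 pairs, and 42 of 64 correlated best with their own number. With 4 samples in each group, 1 in 4 would match its own number by chance. This is a hint from the data that numbers are shared, although not every pair was above 0.1. No label ties the numbers to animals, so the samples were not treated as paired. If animals or batches were shared, the main p-values do not allow for it. The replicate block moved no other count of calls by over 1.5 times, and with a block of both depots by genotype, time point and number the interaction passed for 9 members and the WT depots differed for 5 higher and 4 lower, as without it.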
